A study of Mus musculus with 19 samples.

Results

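Imprinted genes are transcribed mainly from the copy inherited from 1 parent, and 39 of them were followed here across 19 arrays of fetal mouse cortex. They were chosen by gene symbol alone, and every probe set whose deposited symbols include 1 of the 39 was taken. This gave 88 of 45037 tested probe sets, of which the authors' deposited table calls 67 present and 21 absent. 81 carry a single symbol and 7 carry several. By knowledge of mouse imprinting, 19 of the genes are expressed from the paternal copy, 12 from the maternal copy and 6 from the maternal copy mainly in placenta. The remaining 2, Gnas and Grb10, use a parental copy that depends on tissue or transcript.

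Imprinting is set in the germ line by DNA methylation of control regions and is kept through cell division by proteins that guard that methylation. Imprinted genes lie in clusters whose members are often controlled together, and many act on fetal growth, with paternally expressed genes such as Igf2 promoting it and maternally expressed genes such as Cdkn1c and Grb10 restraining it. In the brain the family is also known from the Prader-Willi and Angelman region, which holds Ndn, Magel2, Snrpn and Ube3a. An array reads both parental copies together, so a change in signal says nothing of which copy changed.

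The RNA came from a portion of the cerebral cortex of C57BL/6 fetuses on gestational day 16, with 1 fetus per array. All dams drank water with 2% sucrose for 3 days from gestational day 13 and had 1 subcutaneous injection 12 hours before sacrifice. The control group (5 arrays) had no goitrogen, a drug that blocks thyroid hormone synthesis or uptake of iodide, and an injection of vehicle. The hypo group (5 arrays) had 1% perchlorate with 0.025% methimazole and vehicle. The hypo+ group (5 arrays) had the same goitrogens and 25 µg of T4 with 2.5 µg of T3 per 100 g. The hyper group (4 arrays) had no goitrogen and 100 µg of T4 with 10 µg of T3 per 100 g. T4 and T3 are the thyroid hormones, and T3 acts through nuclear receptors that bind DNA. Other label fields name the goitrogen as propylthiouracil. The labels give 20 dams, 5 per group, with 1 array removed, but they do not say which fetuses came from the same dam, so the p-values rest on the spread between single fetuses.

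The deposited signals are linear intensities from 8 to 29808.5, with array medians from 73.1 to 106, and precision is limited by how many arrays there were. All 10 dorsal cortex markers were called present. The fetuses are described as female, but array 1 of the hypo+ group and array 4 of the hyper group read Xist at 68.8 and 97.2, against 3145.1 to 8226.4 on the others, and the Y-linked Ddx3y at 695.9 and 546.7, against at most 13.3. Array 4 of the hypo group also stood apart, with a summed dorsal cortex signal of 13535.8, where the rest of its group had 21388.4 to 26201. The counts of each comparison that holds these arrays are also given without them.

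6 genes had a probe set that differed between groups, and the start of each is shown because the results below turn on them. The windows run from 250 bases before to 50 bases after the start of a RefSeq transcript on GRCm38.p6, 5′ to 3′ on the gene's strand, with each CG dinucleotide, the unit of DNA methylation, in capitals. They are Peg3 (chr7:6730370-6730669, minus strand), Ndn (chr7:62348027-62348326, plus strand), Blcap (chr2:157566312-157566611, minus strand), Calcr (chr6:3763574-3763873, minus strand), Ube3a (chr7:59228500-59228799, plus strand) and Grb10 (chr11:12037371-12037670, minus strand). Calcr and Grb10 each have a second window, with 4 and 9 CG, which is not shown.
Peg3: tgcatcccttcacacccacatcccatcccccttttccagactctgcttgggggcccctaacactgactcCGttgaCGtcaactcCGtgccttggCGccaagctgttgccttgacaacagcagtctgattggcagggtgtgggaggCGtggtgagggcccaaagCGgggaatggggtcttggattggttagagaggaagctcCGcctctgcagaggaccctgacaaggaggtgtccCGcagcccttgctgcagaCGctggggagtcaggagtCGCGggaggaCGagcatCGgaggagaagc
Ndn: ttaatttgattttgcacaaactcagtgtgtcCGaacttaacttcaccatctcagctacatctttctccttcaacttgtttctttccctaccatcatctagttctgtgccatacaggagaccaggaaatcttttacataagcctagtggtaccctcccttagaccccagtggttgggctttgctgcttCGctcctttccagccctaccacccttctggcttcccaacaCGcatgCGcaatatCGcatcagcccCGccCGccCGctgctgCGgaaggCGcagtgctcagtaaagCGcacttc
Blcap: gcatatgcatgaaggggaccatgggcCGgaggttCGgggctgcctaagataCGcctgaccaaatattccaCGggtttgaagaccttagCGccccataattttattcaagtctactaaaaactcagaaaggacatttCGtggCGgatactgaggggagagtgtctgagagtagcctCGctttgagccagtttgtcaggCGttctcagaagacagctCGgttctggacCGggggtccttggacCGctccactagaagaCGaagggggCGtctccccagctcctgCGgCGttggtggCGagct
Calcr: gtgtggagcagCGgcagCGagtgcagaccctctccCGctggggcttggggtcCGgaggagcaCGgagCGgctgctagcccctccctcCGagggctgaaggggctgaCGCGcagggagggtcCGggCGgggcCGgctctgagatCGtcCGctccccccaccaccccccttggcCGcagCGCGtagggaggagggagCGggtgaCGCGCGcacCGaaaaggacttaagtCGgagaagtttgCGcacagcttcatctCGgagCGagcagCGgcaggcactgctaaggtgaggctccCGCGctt
Ube3a: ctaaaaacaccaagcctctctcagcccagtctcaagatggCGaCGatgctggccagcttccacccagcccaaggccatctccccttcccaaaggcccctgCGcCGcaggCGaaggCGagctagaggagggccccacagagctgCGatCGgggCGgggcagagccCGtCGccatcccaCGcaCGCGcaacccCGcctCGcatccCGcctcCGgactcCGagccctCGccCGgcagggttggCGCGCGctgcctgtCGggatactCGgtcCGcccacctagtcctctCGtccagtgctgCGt
Grb10: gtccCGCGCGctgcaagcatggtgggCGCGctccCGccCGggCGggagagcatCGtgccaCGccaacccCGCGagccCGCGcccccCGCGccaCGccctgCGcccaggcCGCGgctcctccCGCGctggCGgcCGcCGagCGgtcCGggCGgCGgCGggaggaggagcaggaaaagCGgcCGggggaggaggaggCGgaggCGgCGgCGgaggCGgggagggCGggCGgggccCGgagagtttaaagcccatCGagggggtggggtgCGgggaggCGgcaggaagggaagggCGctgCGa

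Windows were matched for 31 of the 39 genes, 49 windows in all, and H19, Cdkn1c, Peg10, Sgce, Kcnq1, Impact, Dcn and Nap1l4 have none here. The median window of these genes held 17 CG, against 7 over all 32851 windows, and the medians were 10 for paternally and 19 for maternally expressed genes. Of the windows printed, Peg3 held 13 CG, Ndn 11, Blcap 17, Calcr 29, Ube3a 29 and Grb10 45. TGCCGC, the recognition sequence of the imprint-guarding protein ZFP57, was found on either strand in 13 of the 49 windows (26.5%), against 11.6% of all windows. TGCCGC itself holds a CG, these windows are richer in CG, and no motif share here was adjusted for base content. Snrpn and Snurf have the same window and 2 Mest windows start 3 bases apart. Counted once where starts on a strand lay within 30 bases, 11 of 46 windows (23.9%) held it. AGGTCA, the core motif bound by thyroid hormone receptors and other nuclear receptors, was found on either strand in 2 windows (4.08%), against 16.3% of all windows. A direct repeat of it spaced by 4 bases was found in none of the 49 and in 5 of all 32851 windows (0.0152%). It is so rare that its absence from 49 windows says nothing about these genes. GCCATNTT, also searched, was found on either strand in 3 of the 49 windows (6.12%), near the 6.05% of all windows. The window of Peg3 shares 263 of its 300 bases with that of Usp29, which is transcribed in the opposite direction.

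Of the 39 genes, 35 had a present probe set as their value, taken as the single-gene probe set of highest mean. They comprised 17 of 19 paternally expressed genes, 11 of 12 maternally expressed genes, 5 of 6 placental genes and both others. Snrpn and Snurf share a transcript and a probe set, which leaves 34 values. Peg10, Zim1, Slc38a4 and Ascl2 were called absent. Of 6 placenta markers 1 was called present.

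The goitrogen group that received the lower hormone dose differed most from the untreated goitrogen group. In hypo+ against hypo, 7 of the 88 probe sets passed an adjusted p under 0.05 (7.95%), against 3.16% of all 45037. Peg3, Ndn, Blcap and Calcr rose and 1 probe set each of Ube3a and Grb10 fell. In 4 of the 88 (4.55%) the arrays of the groups did not overlap, against 5.1% of all. The 5 that rose were 5.68% of the 88, against 2.03% of all probe sets, and the 2 that fell were 2.27%, against 1.13%. In bulk cortex a change in the share of a cell type and a change in RNA per cell cannot be told apart.

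Peg3, a paternally expressed zinc finger protein of growth and maternal behaviour, showed the largest rise of the 34 genes. Its probe set 1417355_at read 912.8, 926.5, 790.3, 1657.2 and 1023.2 in hypo. It read 1924.8, 2208.2, 2351.9, 2257.4 and 2326.5 in hypo+. Every hypo+ array lay above every hypo array, and array 4 of hypo stood well above the other 4. The log2 change, on the scale of log2(value + 32), was 1.08 ± 0.16 (SE), a 2.12-fold rise with an adjusted p of 0.00241. It was 1.25 with an adjusted p of 0.000195 without array 4 of hypo. The second present probe set of Peg3, 1417356_at, gave 0.18 ± 0.12 with an adjusted p of 0.506, so the probe sets of this gene were unequal in their change.

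Blcap, a maternally expressed gene with an antiproliferative protein, also rose. It read 1184.4, 1210.6, 1082.4, 1395.6 and 1331.1 in hypo. It read 1618.6, 1788.1, 1834.8, 1791 and 1837.4 in hypo+, again with no overlap. The log2 change was 0.51 ± 0.08 with an adjusted p of 0.00241, and centring each array on its median gave 0.44 with an adjusted p of 0.053. Its neighbour Nnat, the paternally expressed neuronatin inside the Blcap gene, had a log2 change of 0.06 ± 0.06 (adjusted p 0.69).

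Ndn encodes necdin, a paternally expressed protein that restrains proliferation of neuronal precursors. Its probe set 1455792_x_at read 6885.3, 7658.3, 6561.6, 10325.9 and 5854.2 in hypo. It read 9996.6, 9189.8, 11076.7, 11101.2 and 9521.4 in hypo+. The groups overlapped only through array 4 of hypo. The log2 change was 0.47 ± 0.12 with an adjusted p of 0.038, and the probe set 1437853_x_at gave 0.51 ± 0.14 with an adjusted p of 0.0491. All 5 present Ndn probe sets were higher in hypo+, by 0.2 to 0.51, and 2 of them passed.

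Calcr, the maternally expressed calcitonin receptor, was a dim probe set. It read 23, 26.3, 21.4, 101.1 and 24.8 in hypo. It read 117.7, 57.1, 137.8, 145.1 and 67.2 in hypo+, so that only array 4 of hypo reached the hypo+ range. The log2 change was 0.99 ± 0.26 with an adjusted p of 0.0492.

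The calls for Ndn and Calcr depended on single arrays. Without array 4 of hypo the adjusted p was 0.00352 for Ndn 1455792_x_at, 0.00285 for Ndn 1437853_x_at and 0.0074 for Calcr. For Ndn 1455792_x_at it rose to between 0.0556 and 0.0953 without any 1 of arrays 1, 2, 3 and 5 of hypo or 1, 3, 4 and 5 of hypo+. For Calcr it was between 0.0542 and 0.123 without any 1 of those arrays, arrays 2, 3 and 5 of control or arrays 1 and 3 of hyper. Ndn 1437853_x_at passed in 2 of the 19 fits that left out 1 array, those without array 1 of control and array 4 of hypo, and its adjusted p was between 0.0511 and 0.109 in the others. Without both arrays with Y-linked signal Peg3 (0.00391), Blcap (0.00204), Ube3a (0.0164) and Grb10 (0.0261) still passed, whereas Calcr (0.0875) and the Ndn probe sets (0.064 and 0.0693) did not.

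Ube3a, the maternally expressed ubiquitin ligase of Angelman syndrome, had 6 present probe sets and 1 of them fell. The probe set 1425206_a_at read 296.5, 377.9, 475.4, 440.8 and 437 in hypo. It read 309.4, 269.4, 221.4, 292.8 and 238.9 in hypo+, with array 1 of hypo inside that range. The log2 change was −0.54 ± 0.11 with an adjusted p of 0.0126. The brightest probe set of the gene, 1416680_at, gave 0.09 ± 0.08 (adjusted p 0.633), in the opposite direction.

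Grb10 encodes an adaptor that damps insulin and IGF signalling, maternally expressed in most tissues and paternally in neurons. Its probe set 1425457_a_at read 747.7, 551.7, 704.2, 596.8 and 856.3 in hypo. It read 550.4, 494.8, 415, 425.5 and 392.3 in hypo+, all below the lowest hypo array. The log2 change was −0.56 ± 0.13 with an adjusted p of 0.0259. The brightest Grb10 probe set, 1425458_a_at, gave −0.06 ± 0.09 (adjusted p 0.817) and 1430164_a_at gave −0.24 ± 0.17 (adjusted p 0.522). The call was lost, with adjusted p between 0.0531 and 0.0659, without any 1 of arrays 1, 3 and 5 of hypo or 3, 4 and 5 of hypo+.

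**Figure D1:**
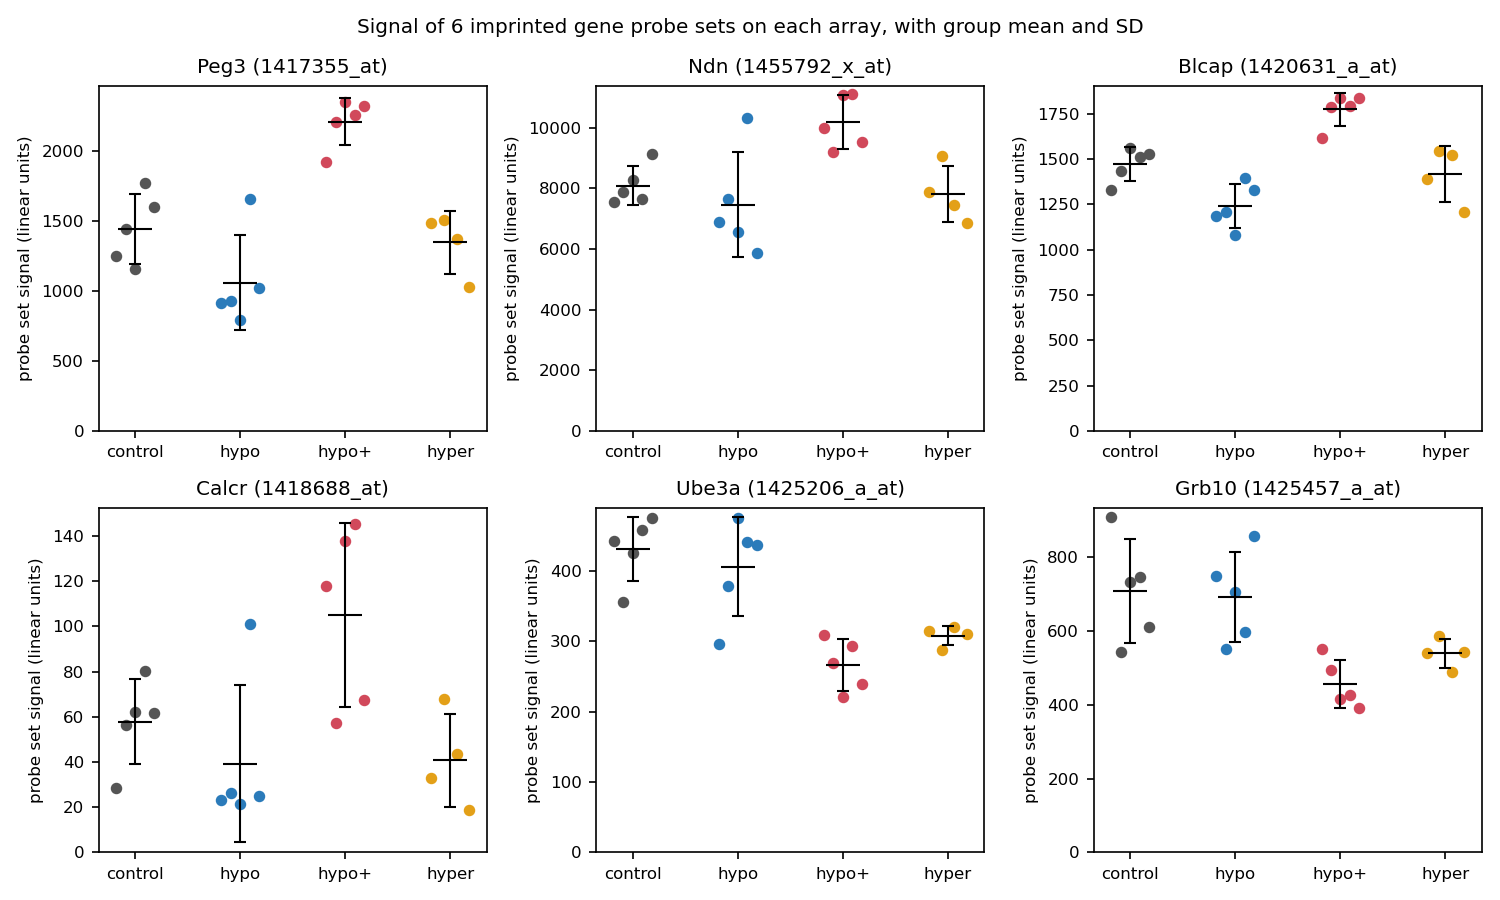
Signal in linear units on every array for 1 probe set each of Peg3, Ndn, Blcap, Calcr, Ube3a and Grb10, by group (control, hypo, hypo+ and hyper), with the group mean as a horizontal line and its SD as a bar. All 5 hypo+ arrays lie above all hypo arrays for Peg3 and Blcap, array 4 of hypo (Peg3 1657.2, Calcr 101.1) lies far above the rest of its group, and the hypo+ arrays of Grb10 lie below those of hypo.

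The probe sets of 1 gene did not move alike. Ube3a ranged from a fall of 0.54 to a rise in probe sets that did not pass, and the plot of probe sets side by side shows that 1 of 2 for Peg3, 2 of 5 for Ndn, 1 of 6 for Ube3a and 1 of 3 for Grb10 passed. Which transcripts these probe sets detect was not analysed here.

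**Figure D2:**
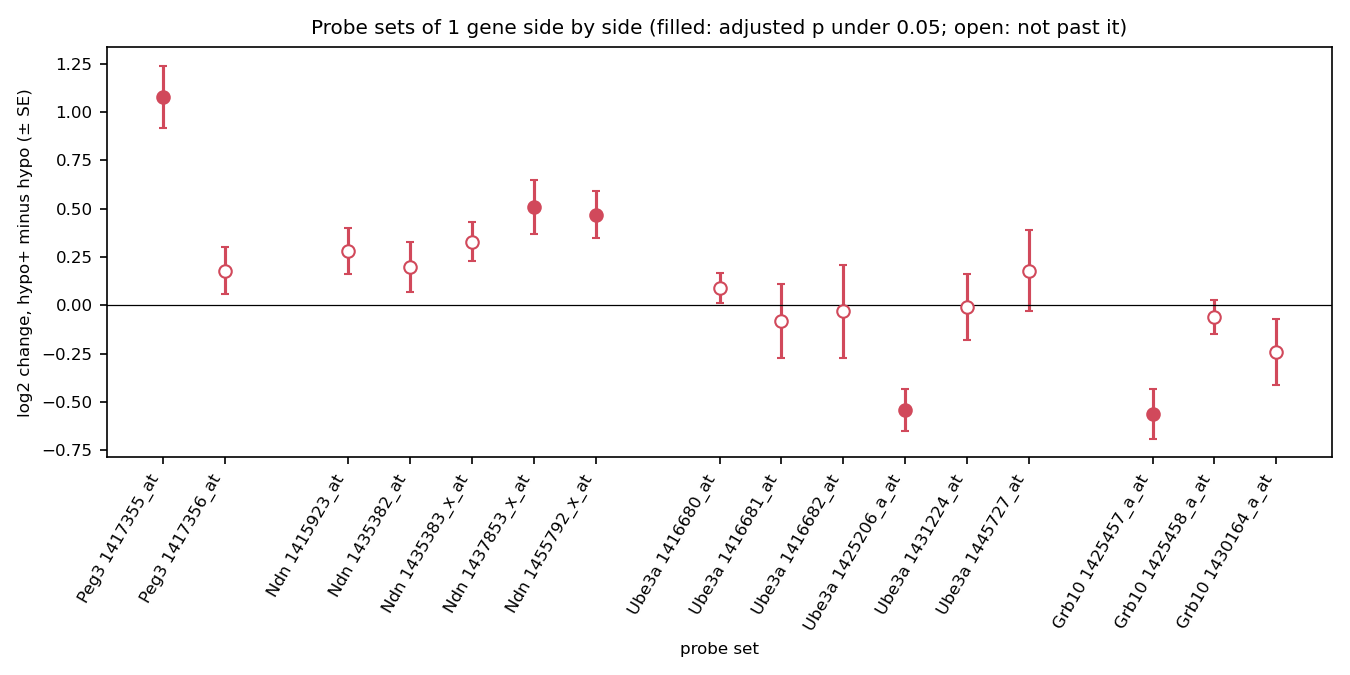
Log2 change of hypo+ against hypo with its SE for every present probe set of Peg3, Ndn, Ube3a and Grb10, filled where the adjusted p was under 0.05. The Ndn probe sets all lie above 0, from 0.2 to 0.51, whereas 1425206_a_at (−0.54) stands apart from the other Ube3a probe sets and 1417355_at (1.08) from the other Peg3 probe set (0.18).

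Several further genes were higher in hypo+ than in hypo without passing. Dlk1, a paternally expressed membrane ligand of the Notch family, read 461, 421.5, 295.7, 1309.5 and 447.3 in hypo. It read 934.5, 678.6, 1473.6, 1412.4 and 791.8 in hypo+, a log2 change of 0.94 ± 0.29 with an adjusted p of 0.0869, and only array 4 of hypo entered the hypo+ range. Asb4, a maternally expressed subunit of a ubiquitin ligase, gave 0.84 ± 0.24 (adjusted p 0.0632). Magel2, the paternally expressed neighbour of Ndn, read 261.6, 300.4, 304.8, 454.1 and 170.4 in hypo and 355.1, 401.2, 459.1, 373.4 and 396 in hypo+. Its change was 0.43 ± 0.16 with an adjusted p of 0.169. In the authors' deposited table, which uses permutation p-values, 10 of the 88 probe sets (11.4%) have an adjusted p under 0.05 in this comparison, against 4.84% of all. They are the 7 above, both Asb4 probe sets (signed fold changes of 1.67 and 1.94) and Dlk1 (1.99).

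Markers of neighbouring brain regions also differed between these groups in level, mostly without passing. None of the 10 dorsal cortex markers was higher in hypo+ than in hypo, their median change was −0.37 and 1 of them, Fezf2, fell (adjusted p 0.0259). The summed dorsal cortex signal was 13049.5 to 20936.2 in hypo+ and 13535.8 to 26201 in hypo. Of the hypothalamus markers 7 of 10 were present, with Hmx2, Nr5a1 and Agrp called absent, and 4 of the 7 were higher in hypo+, with a median change of 0.23, but none passed. The summed signal of all 10, absent ones included, was 1123.6 to 1888 in hypo+, and in hypo it was 727.5 to 1062.3 on 4 arrays and 1478 on array 4. A large part of it came from 1 gene, Lhx8, which read 553.9 to 923.8 in hypo+ and 170.4 to 594.3 in hypo. The summed striatum signal, over 10 markers, was 4582 to 5356.5 in hypo+ and 2859.9 to 3997.3 in hypo, with 4976.6 on array 4. Of its 9 present markers 7 were higher in hypo+ (median 0.22) and 1, Ebf1, passed (0.4, adjusted p 0.0321). Of 8 interneuron markers 7 were higher in hypo+ (median 0.28) and 1, Dlx2, passed (0.76, adjusted p 0.0107), and their summed signal was 8086.4 to 11858.3 in hypo+ and 6075.6 to 9559.9 in hypo. Array 4 of hypo was the highest of its group in 14 of the 34 imprinted genes (41.2%), 9 of them among the 16 paternal values, against 11.4% of all present probe sets. The part of these markers in the changes of imprinted genes was not tested.

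Without array 4 of hypo, 11 of the 88 probe sets passed (12.5%), against 3.76% of all. Without that array and both arrays with Y-linked signal, a setting chosen after the data were seen, 12 passed (13.6%), against 3.51% of all. Array 4 was often the highest of its group in these genes, so leaving it out lowers hypo in them. The count was 4 (4.55%), against 2.48% of all, when only the arrays with Y-linked signal were left out. It was 3 without any 1 of arrays 1 and 3 of hypo or 3, 4 and 5 of hypo+, and 4 without array 5 of hypo or array 1 of hypo+, where 1.67% to 2.4% of all probe sets passed. Over all probe sets 913 rose and 508 fell, whereas quantile normalization gave 1166 and 1095 and median centring gave 557 and 730.

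Against control, the hypo+ group differed in 3 of the 88 probe sets (3.41%), close to the 3.11% of all probe sets. 1 rose (1.14%, against 1.21% of all) and 2 fell (2.27%, against 1.9%). Peg3 1417355_at rose, and Ube3a 1425206_a_at and Grb10 1425457_a_at fell, the same probe sets as against hypo, and both comparisons share the hypo+ arrays. Peg3 read 1250.4, 1444.2, 1161.2, 1772.5 and 1602 in control, all below the lowest hypo+ array. Its log2 change was 0.62 ± 0.16 with an adjusted p of 0.0466. Ube3a read 443, 356.2, 425.5, 457.8 and 474.5 in control, all above the hypo+ arrays, and its log2 change was −0.64 ± 0.11 with an adjusted p of 0.00523. Grb10 read 908.5, 543.3, 732.1, 747.2 and 609.5 in control, with array 2 inside the hypo+ range. Its log2 change was −0.59 ± 0.13 with an adjusted p of 0.0206.

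The Ube3a call held in each of the 19 fits that left out 1 array. The Peg3 call was lost, with adjusted p between 0.0504 and 0.127, without any 1 of arrays 1, 2, 3 and 5 of control, 1, 2 and 5 of hypo, 2, 3, 4 and 5 of hypo+ or 1, 2 and 3 of hyper. The Grb10 call was lost, with adjusted p between 0.0504 and 0.059, without array 1 or 3 of control or array 3, 4 or 5 of hypo+. The count of 3 became 1 (1.14%, against 1.34% to 1.87% of all) without array 1 or 3 of control or array 3, 4 or 5 of hypo+. It became 5 (5.68%, against 3.23% of all) without array 4 of hypo. It was 4 (4.55%) without both arrays with Y-linked signal, against 3.1% of all. In this comparison 0 of 10 dorsal cortex markers were higher in hypo+ (median −0.28), 6 of 7 present hypothalamus markers were (median 0.19) and 7 of 8 interneuron markers were (median 0.15). Of these Dlx2 passed (0.56, adjusted p 0.0454). The part of these markers was not tested. Over all probe sets 544 rose and 856 fell, and median centring gave 391 and 1605.

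Blcap read 1332, 1431.6, 1563.5, 1512.3 and 1525.6 in control, all below the hypo+ arrays, with a log2 change of 0.26 ± 0.08 and an adjusted p of 0.0686. Ndn 1455792_x_at read 7547.9, 7865.9, 8266.7, 7636 and 9118.6 in control, also below the hypo+ arrays, with a change of 0.33 ± 0.12 and an adjusted p of 0.149. Calcr read 28.3, 56.4, 62.1, 80.2 and 61.8 in control, which overlapped hypo+, with a change of 0.58 ± 0.26 and an adjusted p of 0.269. In 8 of the 88 probe sets (9.09%) the hypo+ and control arrays did not overlap, against 4.07% of all probe sets.

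Goitrogen alone changed no imprinted probe set past the threshold. In hypo against control limma called 0 of the 88, as it called 0% of all probe sets, and 9 of the 88 (10.2%) had an unadjusted p under 0.05, against 8.19% of all. In 2 (2.27%) the arrays of the groups did not overlap, against 1.28% of all. Without array 4 of hypo the calls were also 0, and 16 (18.2%) had an unadjusted p under 0.05, against 8.75% of all. All 10 present choroid plexus markers were higher in hypo than in control (median 0.58), none of them past the threshold. All 10 were also higher in hypo+ and in hyper than in control, by a median of 0.48 each. These comparisons share the control arrays. The summed signal of the 12 listed markers was 6290.4 on array 3 of control, against 12832.6 to 20423.8 on the other control arrays. The part of these markers was not tested. The largest change of the 34 values in hypo against control was that of Peg3, −0.47 ± 0.16 (adjusted p 0.43). Zrsr1, a paternally expressed splicing factor gene inside Commd1, read 494.7, 487.5, 542.7, 486.8 and 491.6 in control. It read 469.5, 404.4, 438.3, 442 and 413.5 in hypo, with no overlap, and its change was −0.19 ± 0.05 with an adjusted p of 0.328. Usp29, the paternally expressed deubiquitinase gene beside Peg3, read 334.6, 390.4, 459.9, 476.5 and 456.3 in control. It read 254.2, 331.1, 324.7, 392.1 and 239 in hypo, a change of −0.43 ± 0.13 with an adjusted p of 0.356.

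Zrsr1 was also low in both hormone groups. It read 419, 464, 442.1, 404.9 and 444.4 in hypo+ and 413.5, 481, 452.1 and 423.2 in hyper, all below the lowest control array. The changes against control were −0.19 ± 0.05 (adjusted p 0.0678) and −0.17 ± 0.06 (adjusted p 0.285), and the 3 comparisons share the control arrays. In the authors' deposited table Zrsr1 has an adjusted permutation p of 0.0499 in hypo+ against control.

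The higher hormone dose without goitrogen also gave no call. In hyper against control limma called 0 of the 88 probe sets, against 0.175% of all, and 8 (9.09%) had an unadjusted p under 0.05, against 10.5% of all. In 4 (4.55%) the arrays of the groups did not overlap, against 3.27% of all. Usp29 read 357.1, 343.5, 272.7 and 255.4 in hyper, a change of −0.43 ± 0.14 with an adjusted p of 0.24. Kcnq1, a maternally expressed potassium channel gene with a dim probe set, read 42.8, 52.7, 57.5, 73.7 and 54.9 in control and 53.4, 41.1, 40.8 and 42.6 in hyper, a change of −0.2 ± 0.13 (adjusted p 0.638). Copg2, a maternally expressed coat protein of Golgi vesicles, read 638.6, 720.6, 843.5, 747.2 and 625.7 in control and 610.3, 547.5, 754.3 and 650.7 in hyper. Its groups overlapped and its change was −0.15 ± 0.11 (adjusted p 0.692). The probe set 1425206_a_at of Ube3a, which fell in hypo+, read 313.9, 288, 319.6 and 310.8 in hyper, all below the control arrays, with an adjusted p of 0.144. Array 4 of hyper, which carries Y-linked signal, was the lowest of its group in 21 of the 34 imprinted genes (61.8%), against 40.7% of all present probe sets. Without it limma still called 0 of the 88, and 7 (7.95%) had an unadjusted p under 0.05, against 10.9% of all. Without array 4 of hypo, which lies outside this comparison but enters its spread, the second Peg3 probe set, 1417356_at, passed with a change of −0.54 (adjusted p 0.0344).

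The groups that received hormone were also set against each other, although both the goitrogen and the dose differ between them. In hypo+ against hyper limma called 0 of the 88, against 0.0377% of all probe sets, and 16 (18.2%) had an unadjusted p under 0.05, against 10.1% of all. In 8 (9.09%) the arrays of the groups did not overlap, against 4.57% of all. Peg3 1417355_at read 1486.8, 1511.8, 1374.2 and 1026.8 in hyper, all below hypo+, with a change of 0.71 ± 0.17 (adjusted p 0.214). Blcap read 1390.7, 1545.1, 1522.2 and 1209.4 in hyper, also all below hypo+, with a change of 0.32 ± 0.08 (adjusted p 0.218). Magel2 read 252.8, 330.4, 249.1 and 236 in hyper, again below hypo+, with a change of 0.53 ± 0.17 (adjusted p 0.309). Calcr read 32.7, 67.7, 43.6 and 18.7 in hyper, which overlapped hypo+, with a change of 0.9 ± 0.28 (adjusted p 0.289). Without both arrays with Y-linked signal limma called 0 of the 88 and 11 (12.5%) had an unadjusted p under 0.05, against 11.5% of all. The change of Peg3 was then 0.64 ± 0.19 (adjusted p 0.241) and that of Blcap 0.28 ± 0.08 (adjusted p 0.234).

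The difference between the hormone responses, hypo+ minus hypo against hyper minus control, also gave 0 calls by limma among the 88, against 0.0133% of all. An unadjusted p under 0.05 was reached by 17 (19.3%), against 6.49% of all. The difference was 0.57 ± 0.11 for Blcap (adjusted p 0.183), 1.18 ± 0.24 for Peg3 (adjusted p 0.208), 1.31 ± 0.39 for Calcr (adjusted p 0.555) and 0.58 ± 0.19 for Usp29 (adjusted p 0.59). Without both arrays with Y-linked signal the calls were also 0, and 13 (14.8%) had an unadjusted p under 0.05, against 6.41% of all. Without array 4 of hypo both Peg3 probe sets passed (2.27%, against 0.0511% of all), with differences of 1.35 (adjusted p 0.00973) and 0.84 (adjusted p 0.0427). Without that array and both arrays with Y-linked signal 1 of them passed, 1417355_at, with a difference of 1.27 (adjusted p 0.012). These responses differ in goitrogen as well as in hormone dose, which cannot be told apart here.

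The medians of paternally and maternally expressed genes had the same sign in each of the 6 comparisons over all 19 arrays. Each gene entered at its probe set of highest mean, so the called fall of Ube3a 1425206_a_at was not among the maternal values. In hypo+ against hypo the median log2 change was 0.06 over 16 paternal values, 12 of them positive, and 0.11 over 11 maternal values, 9 of them positive, against 0.01 over all present probe sets. In hypo against control it was −0.08 for the paternal class, with 3 of 16 positive, and −0.2 for the maternal class, with 1 of 11 positive, against −0.03 over all present probe sets. These comparisons share the hypo arrays. In hyper against control the medians were −0.09 and −0.1, against 0.05 over all present probe sets, and in hypo+ against control they were 0.01 and 0.05, against −0.01. The hyper medians rested on array 4, whose paternal score, the median deviation of its genes from their mean over all arrays, was −0.26, against −0.05 to 0.04 on the other hyper arrays. Without that array they were −0.02 and 0.01. The paternal median minus the maternal median was 0.13 in hypo against control and between −0.08 and 0.03 in the other 5 comparisons. Array by array, the paternal minus the maternal score was −0.17 to 0.06 in control, negative on 4 of 5 arrays, and −0.01 to 0.2 in hypo, positive on 4 of 5. These values were given no test.

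**Figure D3:**
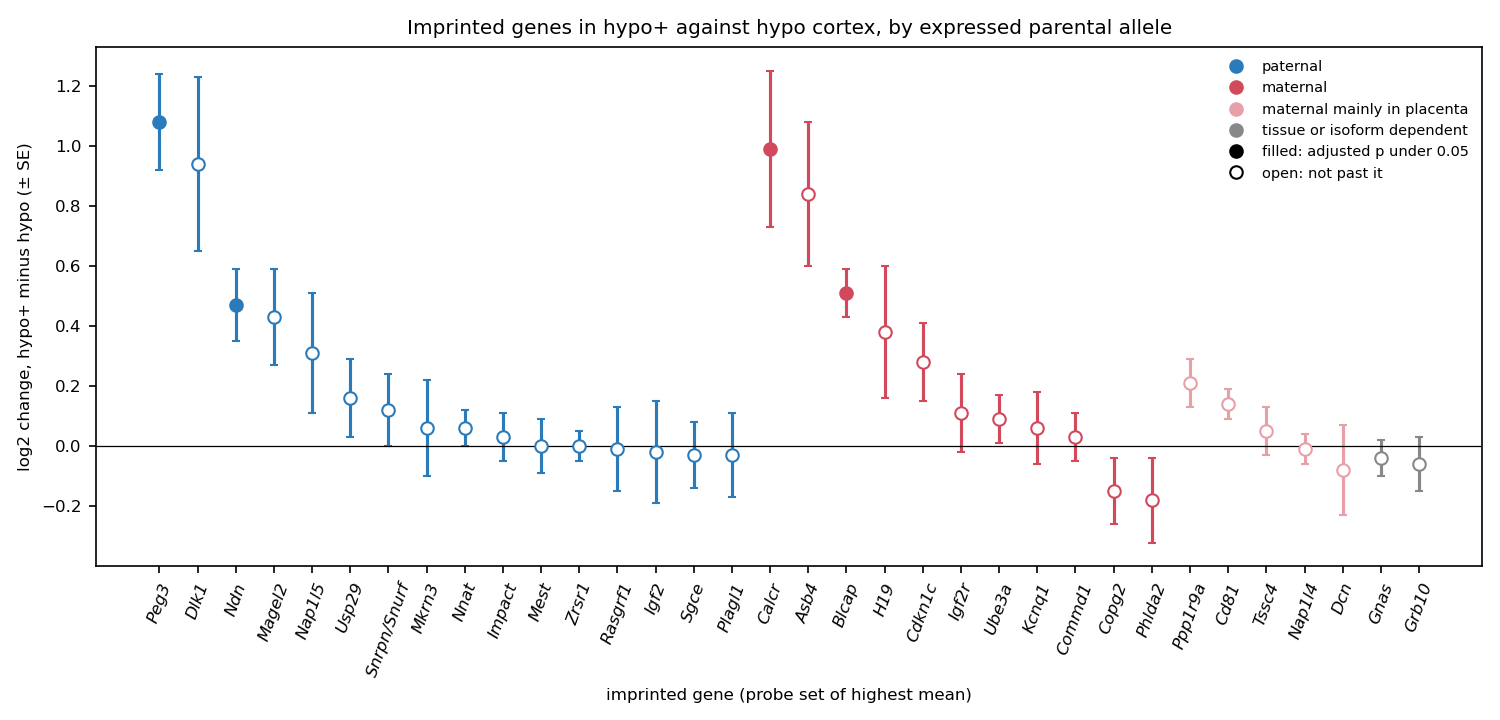
Log2 change of hypo+ against hypo with its SE for the 34 measured imprinted genes, each at its probe set of highest mean, coloured by the expressed parental copy and filled where the adjusted p was under 0.05. The paternal values run from −0.03 to 1.08 (Peg3) and the maternal values from −0.18 (Phlda2) to 0.99 (Calcr), and both classes hold genes that rose. The called falls of Ube3a 1425206_a_at (−0.54) and Grb10 1425457_a_at (−0.56) are not shown, since other probe sets of these genes have the highest mean.

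Igf2, Igf2r, Cdkn1c and Plagl1, imprinted genes of fetal growth that had no probe set past the threshold, were chosen as examples after their values were seen, whereas Grb10 fell and Peg3 rose as given above. In hypo+ against hypo, Igf2, the paternally expressed fetal growth factor, had a change of −0.02 ± 0.17 (adjusted p 0.977). Igf2r, the maternally expressed receptor that clears Igf2, had one of 0.11 ± 0.13 (adjusted p 0.752). In the same comparison Cdkn1c, a maternally expressed inhibitor of the cell cycle, had a change of 0.28 ± 0.13 (adjusted p 0.258). Plagl1, a paternally expressed zinc finger factor, had one of −0.03 ± 0.14 (adjusted p 0.941). None of the 4 passed in any comparison. Of 13 genes of IGF signalling outside the family, Igfbp3, a binding protein of IGFs, fell in hypo+ against hypo, 1 of 13 (7.69%) against 3.16% of all probe sets. It read 325, 352, 401.6, 307.8 and 459.2 in hypo and 300.5, 233.5, 261.8, 257.5 and 221.2 in hypo+, with no overlap. The change was −0.48 ± 0.09 with an adjusted p of 0.0104, and −0.37 ± 0.09 with an adjusted p of 0.0341 against control. The median of the 13 was 0.05 in hypo+ against hypo.

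Genes beside each other were compared array by array, as deviations from the group mean, for 10 neighbouring pairs, with permutation within groups and adjustment over the pairs. Igf2 and H19, the maternally expressed noncoding RNA of the same cluster on chromosome 7, moved together. Pearson's r was 0.8 over 19 arrays (permutation p 0.00033, adjusted p 0.0033), Spearman's rho was 0.76 (permutation p 0.00096, adjusted p 0.0096), and r was 0.7 without the 2 arrays farthest from the median of Igf2. It was also 0.7 over the 18 arrays without array 1 of hyper. In the classes used here Igf2 is paternally and H19 maternally expressed, but the parental copies in use in this tissue were not measured.

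Igf2 read 2790.2, 3356.7, 2720.3, 2336.3 and 1930.6 in control and 3384.4, 2276.2, 2030 and 2037 in hyper. H19 read 3082.2, 2789.8, 2436.5, 2274.4 and 2013.5 in control and 4179.8, 2395.2, 1822.3 and 1587.4 in hyper. Array 1 of hyper was the highest array of both genes in its group. On that array the summed signal of 12 meninges markers was 18606.5, against 4078.1 to 10382.9 on the other 18, of which Col1a1 (4728.8) and Col1a2 (6960) made up 11688.7. Without these 2 collagen genes the sum was 6917.7, below the 7438.4 of array 5 of hypo and above the other 17 arrays, at 3217.5 to 5925.4. Of the 12 markers 4 were highest of all 19 arrays there (Col1a1, Col1a2, Lum and Bgn), and Crabp2 and Islr were not the highest of the hyper group. The sum without Col1a1 and Col1a2 still held Col3a1, also a collagen gene. Col3a1 read 4037 on array 5 of hypo, a large part of its 7438.4, and 2933.6 on array 1 of hyper. Array 5 of hypo, the highest without Col1a1 and Col1a2, had the highest Igf2 (3201.1) and H19 (3211.8) of the hypo group. All 12 markers were called present. The part of the meninges in the relation was not tested.

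**Figure D4:**
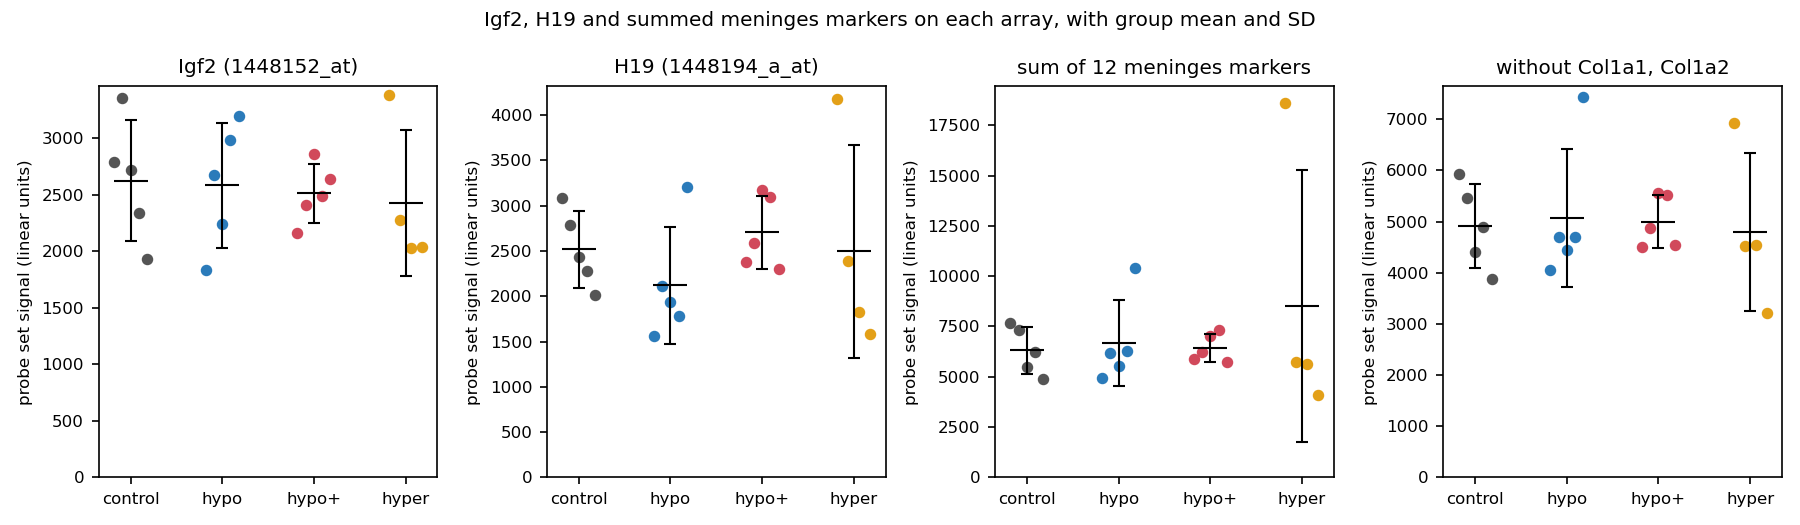
Signal in linear units of Igf2, H19, the sum of 12 meninges marker genes and that sum without Col1a1 and Col1a2 on each array, by group, with the group mean and SD. Array 1 of hyper is the highest of its group in all 4 panels (3384.4, 4179.8, 18606.5 and 6917.7), but 11688.7 of its 12-gene sum is from Col1a1 and Col1a2, and without them array 5 of hypo is higher (7438.4).

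Ndn and Magel2, on chromosome 7, had an r of 0.77 (permutation p 0.0082, adjusted p 0.041) and a rho of 0.5 (permutation p 0.0572, adjusted p 0.191). The r fell to 0.41 without the 2 arrays farthest from the median of Ndn, so the relation rests on those arrays. Peg3 and Usp29, whose start windows overlap, had an r of 0.57 (permutation p 0.0333, adjusted p 0.111) and a rho of 0.67 (permutation p 0.00629, adjusted p 0.0314), and r was 0.36 without the 2 farthest arrays. For the other 7 pairs r was between −0.39 and 0.45 and none passed by either measure. They included Nnat and Blcap, with an r of 0.45, and Snrpn and Ube3a, with an r of −0.39.

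**Figure D5:**
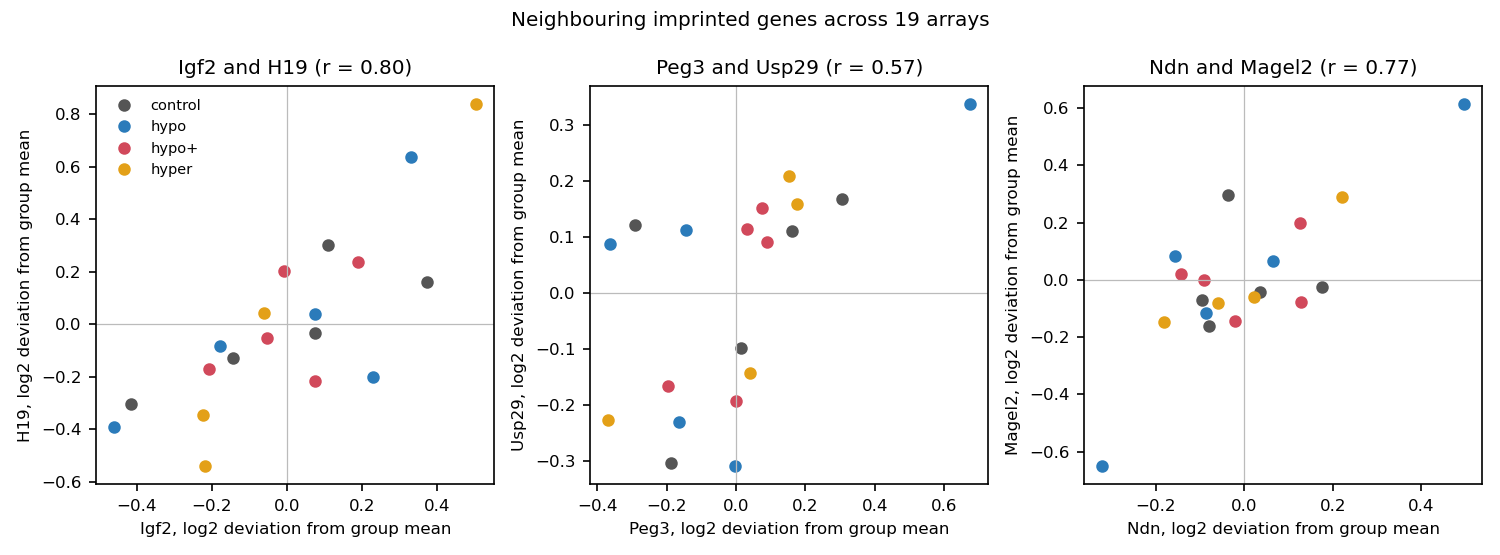
Log2 deviation from the group mean of 2 neighbouring genes on each of 19 arrays, for Igf2 and H19 (r = 0.8), Peg3 and Usp29 (r = 0.57) and Ndn and Magel2 (r = 0.77), coloured by group. The Igf2 and H19 points follow 1 line over their range, whereas for Ndn and Magel2 a few hypo arrays at the ends set the relation.

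Imprinted genes outside the 39 gave 2 further calls. Of 37 listed, 32 were found and 24 were called present, and in hypo+ against hypo Rian and Casd1 rose (6.25% of the 32, against 3.16% of all probe sets) and none fell. Rian, a maternally expressed noncoding RNA of the cluster that holds Dlk1, read 791.1, 1147.6, 913.4, 1140.4 and 686.7 in hypo. It read 1458.7, 1266, 1753.7, 2146.5 and 1533.4 in hypo+, with no overlap, a change of 0.79 ± 0.16 with an adjusted p of 0.0137. Casd1 had a change of 0.48 ± 0.12 with an adjusted p of 0.0315. Meg3, the noncoding RNA next to Rian, had a change of 0.35 ± 0.22 (adjusted p 0.449). The median of the 24 was 0.13, and no gene of the list passed in the other comparisons.

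Of 22 genes that set or keep imprints, 21 were found and 19 were present. Cbx5, a heterochromatin protein, fell in hypo+ against hypo by 0.32 on the log2 scale, from a mean of 3287.6 ± 261.5 (SD, n = 5) to 2629.3 ± 181.7 (SD, n = 5), with an adjusted limma p of 0.0322. This is 1 of 21 (4.76%), near the 3.16% of all probe sets. The others did not pass in any comparison. Zfp57, which guards methylated imprints, had a change of 0.15, and Dnmt1, which copies methylation after replication, one of −0.02.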

How the data were processed

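RNA of 19 fetal cortices was measured on Affymetrix arrays, 1 per fetus. The labels name a rat array, but the deposited probe sets and symbols are those of mouse and were used. The signals are linear intensities per probe set, already summarised and normalized in the deposited table. RMA and MAS5 are named per the submitters' processing notes, without saying which made these values. The other deposited table holds the authors' signed fold change and test scores, the authors' permutation p-values, raw and adjusted, and a present or absent call, per the file headers.

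The table holds 45101 probe sets, and 64 controls were not tested. The deposited intensities were taken to the log2 scale as log2(value + 32), which understates changes of dim genes. Group means of all 19 arrays were fitted over 45037 probe sets with lmFit and eBayes of limma 3.58.1 (R 4.3.3), with 15 residual degrees of freedom, Benjamini-Hochberg adjustment over all of them and an adjusted p under 0.05 as the threshold. Adjusted p-values of group comparisons come from limma and are two-sided, except where they are credited to the authors' table. Values per array are given for genes with a probe set past the threshold and for the 2 measured genes of smallest p per parental class in each of 6 comparisons. Dlk1, Igf2, H19, Igf2r, Cdkn1c, Plagl1, Rian and Igfbp3 were shown after their values were seen. The genes, lists and pairs were chosen with earlier results of these data known. Parental classes are from mouse and were given no test. Correlations of pairs were tested two-sided with 100000 permutations within groups. Arrays correlated at 0.9761 to 0.9934 and no pair was identical. The fit was tested on simulated data. Start windows are RefSeq sequences on GRCm38.p6, and no build is given for the array annotation in the sources used here. Alternatives changed the pseudocount (1 and 100), the normalization, the probe set filter, the unit, array weights, the prior, the threshold, the block and the arrays used. The alternative without array 4 of hypo and both arrays with Y-linked signal was chosen after seeing the data. So was the sum of meninges markers without Col1a1 and Col1a2.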

Additional observations from a re-analysis of the deposited data

Results flagged for a closer look

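Lone arrays were looked for in 56 groups of values, and 6 held an array that lay farther from the others than expected for the size of the group (10.7%), where chance gives about 1 in 20. Array 4 of hypo accounted for 2 of them. Its Peg3 1417355_at signal was 1657.2, where the rest of the group read 790.3 to 1023.2. Its Calcr signal was 101.1, against 21.4 to 26.3. Array 1 of hypo+, which carries Y-linked signal, had a Blcap signal of 1618.6, against 1788.1 to 1837.4 on the other hypo+ arrays. Zrsr1 read 542.7 on array 3 of control, against 486.8 to 494.7. Kcnq1 read 53.4 on array 1 of hyper, against 40.8 to 42.6. Magel2 read 407.7 on array 2 of control, against 288.3 to 320.1.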

How the results depend on the processing

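In hypo+ against hypo the 7 called probe sets became 11 with array weights (12.5%, against 4.49% of all) and 4 with the replicate block (4.55%, against 2.54%). They became 4 without both arrays with Y-linked signal (4.55%, against 2.48%) and 12 without these and array 4 of hypo (13.6%, against 3.51%). With 1 array left out they were 3 to 11 (3.41% to 12.5%, against 1.67% to 3.76%). At gene level the base was 20406 genes, of which 371 passed with the probe set of highest mean and 266 with the mean of a gene's probe sets. Of the imprinted genes 3 and 2 passed there. In hypo+ against control the 3 became 0 and 0 with both gene-level units, where 163 and 121 of all genes passed. They were 1 to 5 when 1 array was left out (1.14% to 5.68%, against 1.34% to 4.18% of all). With the probe set of highest mean, Grb10 turned to 0.02 in hypo+ against control and Ube3a to 0.09 in hypo+ against hypo, since another probe set then stands for the gene. In hyper against control the count of 0 became 1 with quantile normalization (1.14%, against 0.395% of all). It was 0 to 1 when 1 array was left out, with the 1 (1.14%, against 0.184% of all) without array 4 of hypo. Requiring a 1.5-fold change and an unadjusted p under 0.05 gave 4 in hypo+ against hyper (4.55%, against 0.273% of all). It gave 9 in the difference of responses (10.2%, against 0.944% of all). At the adjusted threshold the count in the difference of responses ranged from 0 to 2 when 1 array was left out. It was 1 (1.14%, against 0.0111% of all) without both arrays with Y-linked signal and array 4 of hypo. The paternal minus maternal median became 0.14 in hypo+ against hyper with all probe sets, and 0.02 (pseudocount 100), 0.06 (placental genes joined to the maternal class) and 0.14 (all probe sets) in the difference of responses. Hypo against control kept 0 calls under each alternative. Causes were not tested unless stated. Over all probe sets, 1421 calls in hypo+ against hypo became 2261 with quantile normalization, 616 with the unadjusted threshold and 371 and 266 at gene level, and 1400 in hypo+ against control became 554 with only the arrays compared, 485 with the unadjusted threshold and 163 and 121 at gene level. The 79 calls of hyper against control ranged from 14 to 391 when 1 array was left out, and median centring moved the median of all probe sets in hypo+ against control to −0.106. Deviations of 27 same-numbered pairs correlated at −0.3692 to 0.4387 (median 0.0015, against 0.007 for other pairs), 8 over 0.1. In all, 4 of 19 arrays correlated best with their own number. Pairs of arrays numbered 1 correlated at 0.1631 to 0.4387, except hypo with hyper (−0.0149). Whether the arrays numbered 1 have something in common was not tested. With the replicate block Peg3 in hypo+ against control had an adjusted p of 0.0675, and Calcr (0.0651) and Ndn (0.0694 and 0.077) in hypo+ against hypo also missed the threshold. The fit of only the arrays compared was not run for the difference of responses, which uses all 4 groups.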
